A study of Homo sapiens with 7 samples.

Results

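The genes that make cholesterol and fatty acids were followed across K562 cells as they became resistant to dasatinib, an inhibitor of the BCR::ABL1 kinase that drives chronic myeloid leukemia. The 33 genes were chosen by name for their place in the pathways, with earlier results of these data known. They comprise 7 enzymes of the mevalonate pathway, 11 enzymes that turn its product into cholesterol, 9 genes of fatty acid synthesis, and 6 genes that regulate the pathways or move sterols. All 33 were among the 10452 genes tested, of 25702 gene IDs counted. One of them, HSD17B7, passed the filter on low counts only through the control lines, where it was highest.

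K562 is an established BCR::ABL1 positive line from a patient with chronic myeloid leukemia. The study grew it for months in stepwise rising dasatinib and sequenced RNA from 7 lines, with 1 library each. The drug naive line and a line kept in parallel with the DMSO vehicle formed the control group of 2. The early stage intermediates were the K562 DasR lines at 10, 15 and 25 nM dasatinib, and the late stage intermediates were those at 50 and 200 nM. All lines carry the BCR::ABL1 fusion and come from 1 cell line, and the DasR lines are steps of a dose escalation. The lines of a group are therefore related and are not repeat cultures of a condition, so the p-values measure only the spread between these lines. The study chose the groups from the clustering of the same libraries. Total counts per library ranged from 20059656 in the 25 nM line to 27844799 in the 15 nM line. The lowest count of any of the 33 genes in any line was 138 and the highest was 38601. Lines of the same group differed by more than counting error, since the chi-square of their counts divided by its degrees of freedom was 14.5 for the 15 and 25 nM lines, 24.4 for the control lines and 45 for the 10 and 15 nM lines. Levels are given as CPM, the counts of a gene per 1e6 counts of the library, after trimmed mean (TMM) scaling. Changes are log2 fold changes with their standard error (SE) from an edgeR quasi-likelihood fit, and the false discovery rate (FDR) is over all 10452 genes. A gene was called at an FDR below 0.005, the threshold of the study, and a second threshold of 0.05 is given beside it. In bulk RNA, fewer cells that express a gene and less of its RNA per cell cannot be told apart.

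Both pathways start from acetyl-CoA and are controlled together by the sterol regulatory element-binding proteins (SREBPs). These membrane-bound transcription factors are held in the endoplasmic reticulum with SCAP by INSIG1 and INSIG2 when sterols are plentiful, and are carried to the Golgi apparatus and cut free when sterols are scarce. SREBF2 encodes the form best known for cholesterol synthesis genes and SREBF1 the forms best known for fatty acid synthesis genes. SREBPs usually act together with the general factors NF-Y and SP1.

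The label of the cells was checked first with marker genes. All 8 erythroid markers, the lineage given by the labels, passed the filter. Their summed level was 1540 CPM in the drug naive line and 1350 CPM in the DMSO line. It was 3110, 3210 and 2960 CPM in the 10, 15 and 25 nM lines, and 2370 and 1810 CPM in the 50 and 200 nM lines. The summed level was thus higher in every DasR line than in either control. TFRC, the transferrin receptor and the most abundant gene of the list, rose in the early stage by 1.13 (SE 0.12) with FDR = 0.000677. At the second threshold 7 of the 8 markers were higher in the early stage, against 22.6% of all genes. The exception was GATA1 at -0.18 (FDR = 0.283). In the late stage 1 of the 8 was higher than control, against 16.2%, and 0 were lower, against 17.6%. In the late against the early stage 1 was higher and 2 were lower, against 6.6% and 6.1%. The part of the erythroid shift in the lipid results was not tested. Of 19 markers of 6 lists for other cell types, 3 passed the filter (CD3D, LYZ and EPCAM) and 8 were below 1 CPM in every library. The summed level of adipocyte and hepatocyte markers, cells that make much lipid, was between 0.109 and 7.16 CPM. T cell markers summed to between 4.16 and 29.8 CPM. CD3D, the most abundant of these, was at 17 and 8.18 CPM in the drug naive and DMSO lines, at 3.66, 2.75 and 8.59 CPM in the early stage lines, and at 23 and 29.7 CPM in the late stage lines, and was higher in the late than in the early stage by 2.41 (SE 0.50, FDR = 0.027). The other T cell markers, CD3E and CD8A, were at or under 1.41 CPM in every line. The part of CD3D-expressing cells in the differences between the stages was not tested. B cell markers to between 2.88 and 10.3 CPM, and fibroblast markers to between 4.79 and 19.5 CPM. Monocyte markers summed to between 26.2 and 104 CPM and epithelial markers to between 51.7 and 75.6 CPM.

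Promoter sequence is shown here for 4 genes whose levels are described further on, SREBF2 and INSIG1 because they hold the motifs that SREBPs recognize, HMGCS1 and MSMO1 because they differed most between the control lines. The last 3 were chosen after their values were seen. RefSeq promoter windows on GRCh38.p14, from 250 bases before to 50 bases after the start of transcription, were present for 29 of the 33 genes, with FASN, SQLE, ACAT2 and FDFT1 without one. The SREBP motif TCACNCCAC was found on either strand in 1 of the 29 genes, or 3.45%, and in 1.43% of 8339 tested genes with a window. The E-box form TCACGTGA was also found in 1 gene, or 3.45%, and in 2.53% of the tested genes. The NF-Y box CCAAT was found in 21 genes, or 72.4%, and in 43.8% of the tested genes. The SP1 box GGGCGG was found in 28 genes, or 96.6%, and in 78% of the tested genes. Over all 35116 windows of the same length, the shares were 1.13% for the SREBP motif, 0.98% for its E-box form, 34.6% for the NF-Y box and 45% for the SP1 box. These are matches of letters and were not tested as sites of binding. In the stretches that follow, read 5′ to 3′ on the strand of the gene, capitals mark the match. It is TCACCCCAC in SREBF2 (chr22:41832922-41833030, plus strand), where it begins 133 bases before the start, and TCACGTGA in INSIG1 (chr7:155297772-155297877, plus strand), 56 bases before it. In HMGCS1 (chr5:43313458-43313562, minus strand) the capitals are ATTGG, the NF-Y box on the other strand, 100 bases before the start, and this gene holds 2 such boxes upstream of the start. In MSMO1 (chr4:165327585-165327668, plus strand) they are 2 of the 4 NF-Y boxes upstream of the start.
SREBF2: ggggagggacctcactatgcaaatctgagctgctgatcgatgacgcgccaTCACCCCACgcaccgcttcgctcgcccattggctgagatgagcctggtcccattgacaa
INSIG1: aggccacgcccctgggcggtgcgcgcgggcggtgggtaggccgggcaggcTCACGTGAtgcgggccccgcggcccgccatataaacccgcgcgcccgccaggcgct
HMGCS1: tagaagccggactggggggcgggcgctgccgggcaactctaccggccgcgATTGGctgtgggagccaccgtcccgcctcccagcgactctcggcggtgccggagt
MSMO1: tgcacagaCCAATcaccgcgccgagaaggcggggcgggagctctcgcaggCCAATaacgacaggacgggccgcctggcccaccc

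The 33 genes did not move as a block. In the early stage ACLY and ACSS2, which make acetyl-CoA in the cytosol, fell, and in the late stage FASN, the fatty acid synthase, rose. FADS1, a fatty acid desaturase, was low in the early stage lines and 4.86-fold higher in the late stage than in the early stage, a log2 difference of 2.28 that was 1.68 without the 200 nM line. None of the 7 mevalonate pathway genes passed either threshold in any of the 3 comparisons. A difference that covered much of the set was seen between the 2 control lines, where 11 genes were at least 1.5-fold higher in the drug naive line than in the DMSO line (33.3%, against 3.21% of all genes) and none was lower by that much (against 1.34%).

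Together the 33 genes took 0.798% of all counts in the drug naive line and 0.608% of those in the DMSO line. Their share was 0.54%, 0.636% and 0.653% in the 10, 15 and 25 nM lines, and 0.771% and 0.926% in the 50 and 200 nM lines. The late stage lines and the drug naive line were thus at the top and the 10 nM line at the bottom. A few abundant genes weigh heavily in this order. FADS1, SCD and FASN held 38601, 36185 and 31552 of the 199824 counts of the set in the 200 nM line. In the drug naive line they held 22163, 36929 and 13742 of 167677. Per kilobase of gene length, on the mean CPM over the 7 lines, SCD was the most abundant at 248.2 CPM per kb, above 98.1% of all tested genes. FADS1 followed with 174.2, FASN with 122.5 and FDFT1 with 121.7 CPM per kb. This order pools lines that differ, and on the mean of the control lines FASN was at 75.6 and FDFT1 at 142.3 CPM per kb. INSIG2 was the least abundant with 4.95 CPM per kb, at the 13.1 percentile of tested genes.

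**Figure D1:**
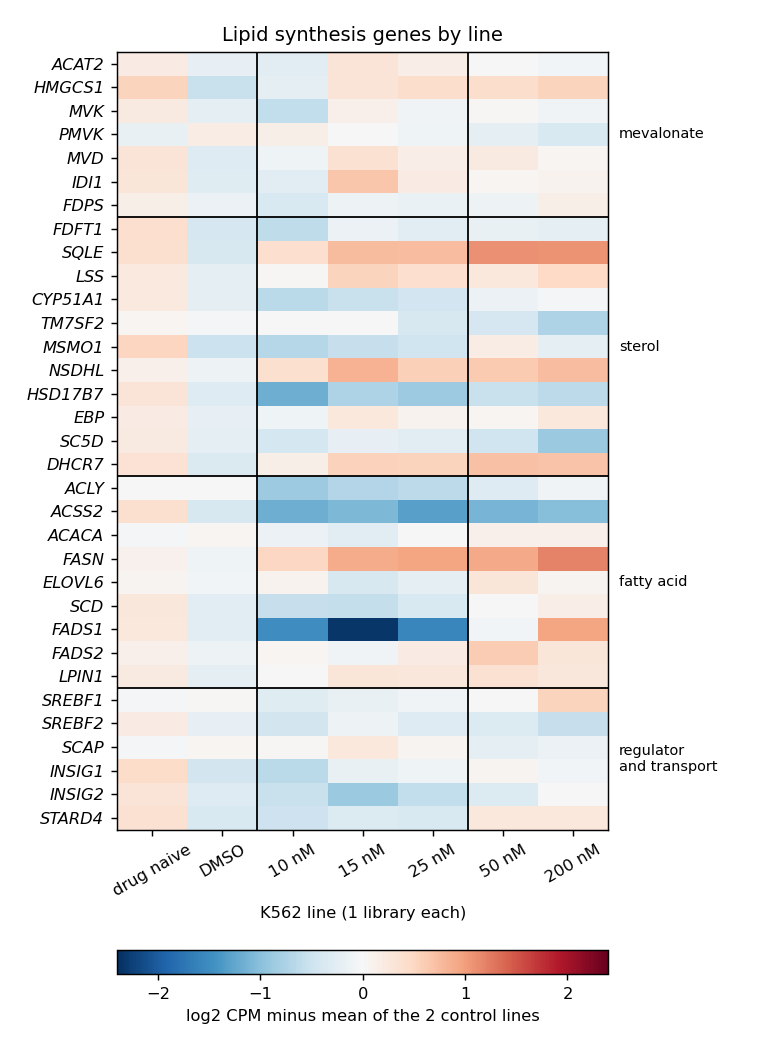
Level of each of the 33 genes (rows, grouped by pathway branch) in each of the 7 K562 lines (columns, 1 library each), as log2 CPM minus the mean of the 2 control lines, with red for higher and blue for lower. FADS1 stands out as blue in the 3 early stage lines, ACSS2 is blue in all 5 DasR lines, and FASN is red in all 5, and 28 of the 33 rows are higher in the drug naive than in the DMSO column.

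At an FDR below 0.005, 2 of the 33 genes were lower in the early stage than in control, against a background of 10.1% of all tested genes, and none was higher, against 7.92%. At an FDR below 0.05, 7 of the 33 (21.2%) were lower, against 24% of all genes, and 2 (6.06%) were higher, against 22.6%. The 7 include HSD17B7, which passed the filter only through the control lines. The median log2 fold change of the 33 was -0.17, beside 0.003 for all genes. In the late stage, 1 of the 33 was higher than control at an FDR below 0.005, against 3.42%, and none was lower, against 4.56%. At the second threshold 3 were higher (9.09%), against 16.2%, and 2 were lower (6.06%), against 17.6%. The late stage median was 0.04, beside -0.004 for all genes. Both comparisons use the same control lines. At an unadjusted p below 0.05, 33.3% of the 33 genes passed in the early and 27.3% in the late comparison, beside 54.2% and 45.9% of all genes. The median SE of the 33 in the early stage was 0.189, beside 0.131 for all genes, so that their lines also spread more within groups.

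**Figure D2:**
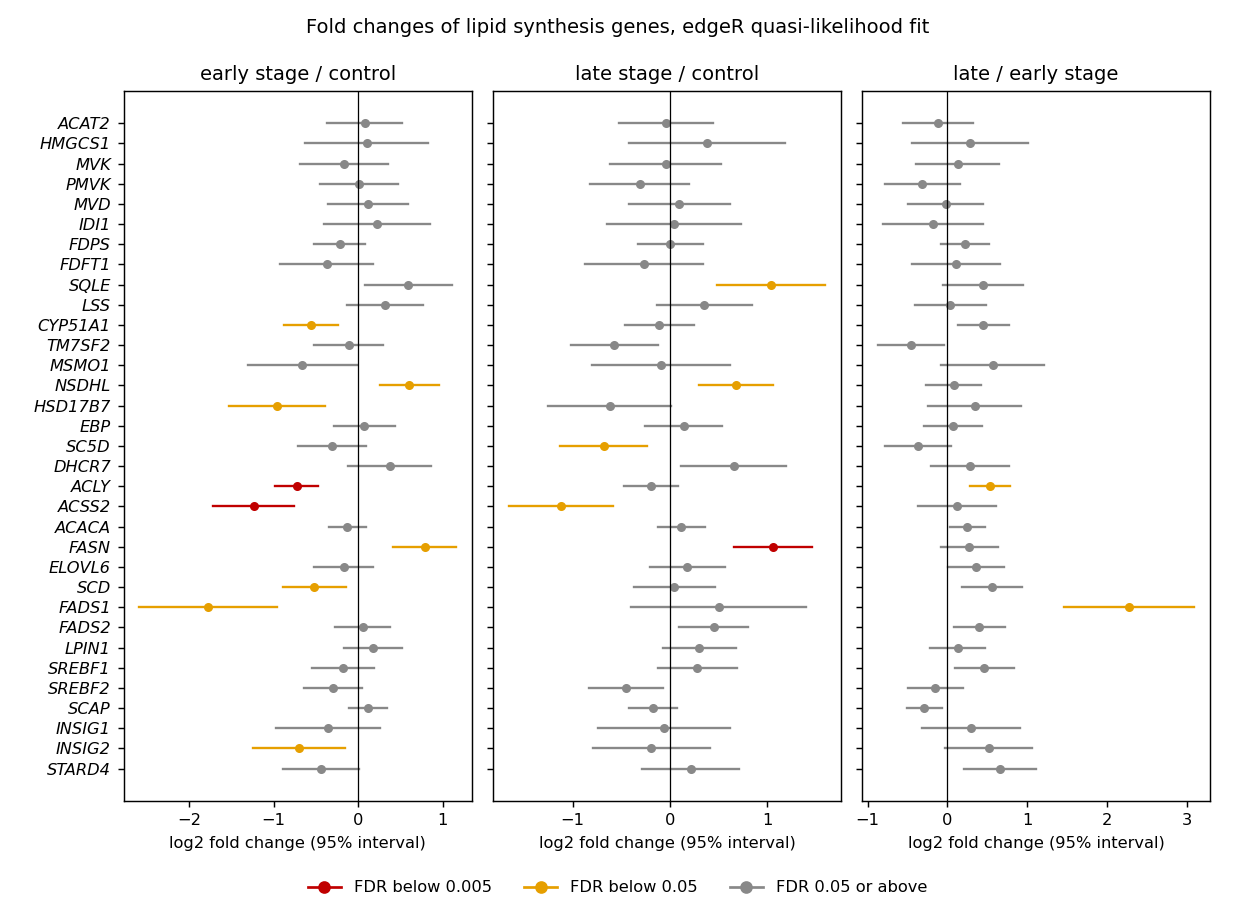
Log2 fold change with its 95% confidence interval (x axis) for each of the 33 genes (rows) in the 3 comparisons, from the edgeR quasi-likelihood fit. Red marks an FDR below 0.005 (ACLY and ACSS2 in the early stage, FASN in the late stage), orange an FDR below 0.05 and grey the rest, and the intervals of all mevalonate pathway genes cross 0.

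Acetyl-CoA for lipid synthesis comes from citrate through ATP citrate lyase, encoded by ACLY (hg19, chr17:40023170-40086795, minus strand), and from acetate through acetyl-CoA synthetase, encoded by ACSS2 (chr20:33459949-33515765, plus strand). ACLY was at 421 CPM in the drug naive line and 432 CPM in the DMSO line. It was at 234, 262 and 276 CPM in the 10, 15 and 25 nM lines, and at 342 and 404 CPM in the 50 and 200 nM lines. Every DasR line was under both controls, the early stage lines the lowest, and the early and late stage lines did not overlap. The control mean was 427 ± 7.61 CPM (SD, n = 2), the early stage mean 258 ± 21.4 CPM (SD, n = 3) and the late stage mean 373 ± 44 CPM (SD, n = 2). In the early stage ACLY fell to 0.604 of control, a log2 fold change of -0.73 (SE 0.11, edgeR FDR = 0.00214). In the late stage the value was 0.875 of control with FDR = 0.243.

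ACSS2 was at 208 CPM in the drug naive line and 121 CPM in the DMSO line. It was at 70.3, 74.9 and 64.7 CPM in the early stage lines, and at 73 and 78.7 CPM in the late stage lines. All 5 DasR lines were under both controls and close to each other, while the control lines were far apart. Relative to control, ACSS2 fell in the early stage to 0.425 (log2 -1.24, SE 0.20, edgeR FDR = 0.00321) and in the late stage to 0.46 (log2 -1.12, SE 0.23, FDR = 0.0109), the latter past the second threshold. The late and early stage did not differ detectably, by 0.12 with FDR = 0.73. Without any 1 of the control or early stage lines the FDR of ACLY was between 0.00628 and 0.0165, with log2 fold changes from -0.78 to -0.66, and that of ACSS2 without the drug naive line or 1 of the early stage lines was between 0.00921 and 0.015. Without the drug naive line the log2 fold change of ACSS2 was -0.81 in the early and -0.69 in the late stage.

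Fatty acid synthase, encoded by FASN (chr17:80036214-80056170, minus strand), builds palmitate from acetyl-CoA and malonyl-CoA. FASN was at 684 CPM in the drug naive line and 595 CPM in the DMSO line. It was at 904, 1177 and 1225 CPM in the 10, 15 and 25 nM lines, and at 1202 and 1464 CPM in the 50 and 200 nM lines. All 5 DasR lines were above both controls. The group means were 640 ± 62.4 CPM (SD, n = 2) in control, 1102 ± 173 CPM (SD, n = 3) in the early stage and 1333 ± 185 CPM (SD, n = 2) in the late stage. FASN was 2.08-fold higher in the late stage than in control, a log2 fold change of 1.06 (SE 0.17, edgeR FDR = 0.00493). Its early stage value was 1.72-fold (log2 0.79, SE 0.16, FDR = 0.00681), which passed only the second threshold. The late stage FDR was between 0.00773 and 0.0328 when a line other than the 10 nM line was left out, and the early stage FDR was 0.0542 without the DMSO line. ACACA, which makes malonyl-CoA for the synthase, was between 197 and 256 CPM in all lines and passed no threshold, with log2 fold changes of -0.13 and 0.12.

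Of all genes tested, 24.4% were higher in all 5 DasR lines than in both controls and 25.1% were lower in all 5. Among the 33 genes, 3 were higher in this way (SQLE, NSDHL and FASN) and 3 were lower (HSD17B7, ACLY and ACSS2), which is 9.09% in each direction. HSD17B7 passed the filter only through the control lines, so its place in this count was set by the filter. The shares of all genes were taken after the same filter.

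**Figure D3:**
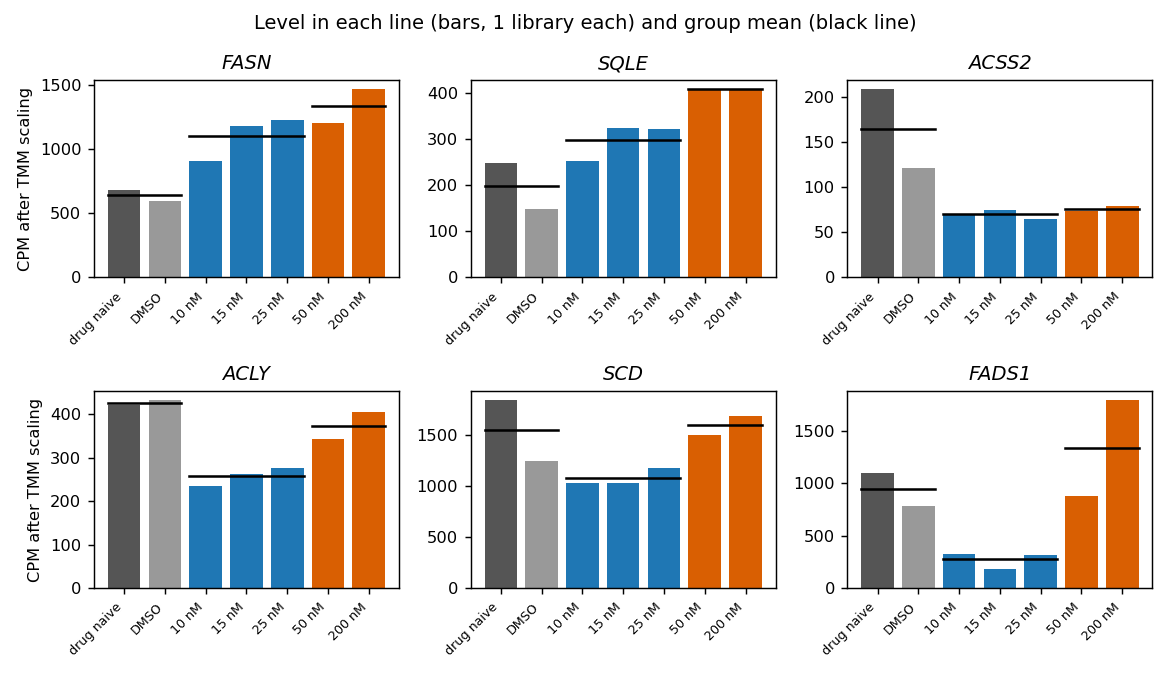
CPM after TMM scaling (y axis, from 0) of FASN, SQLE, ACSS2, ACLY, SCD and FADS1 in the 7 lines, with grey bars for control, blue for early stage and orange for late stage lines, 1 library each, and black lines at the group means. FASN and SQLE are lowest in the DMSO line, ACSS2 drops from 208 and 121 CPM in the controls to between 64.7 and 78.7 CPM, and SCD and FADS1 are lowest in the early stage lines.

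The desaturases put double bonds into fatty acids, SCD into saturated chains and FADS1 and FADS2 into polyunsaturated ones. FADS1 was at 1103 CPM in the drug naive line and 784 CPM in the DMSO line. It was at 330, 184 and 313 CPM in the 10, 15 and 25 nM lines, and at 884 and 1792 CPM in the 50 and 200 nM lines. All early stage lines were under all other lines, the 50 nM line lay between the controls, and the 200 nM line was the highest. In the early stage FADS1 was at 0.292 of control (log2 -1.78, SE 0.35, edgeR FDR = 0.00602), which passed the second threshold. The late stage value was 0.50 (SE 0.38, FDR = 0.341), with a 95% interval from -0.40 to 1.41. The difference between the stages was 2.28 (SE 0.35, FDR = 0.0169), or 4.86-fold. Without the 200 nM line it was 1.68 with FDR = 0.0855.

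SCD was at 1837 CPM in the drug naive line and 1248 CPM in the DMSO line. It was at 1033, 1025 and 1177 CPM in the early stage lines and at 1502 and 1680 CPM in the late stage lines. The early stage lines were again the lowest of the 7. The early stage mean of SCD was 0.699 of control with a log2 fold change of -0.52 (SE 0.16, edgeR FDR = 0.034), past the second threshold. Without the drug naive line the log2 fold change was -0.225 with FDR = 0.221, and the FDR was 0.0803 without the 10 nM line and 0.0852 without the 15 nM line. The late stage value was 0.04 with FDR = 0.866. FADS2 was between 47.3 and 59.1 CPM in the control and early stage lines and at 78.5 and 63.6 CPM in the 50 and 200 nM lines, with log2 fold changes of 0.05 in the early stage (FDR = 0.777) and 0.45 in the late stage (FDR = 0.0539).

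FADS1 (chr11:61567099-61596790, minus strand), FADS2 (chr11:61560452-61634826, plus strand) and FADS3 (chr11:61640991-61659523, minus strand) lie side by side. The first 2 overlap on opposite strands and share 490 exon bases, which is 4.79% of the exon bases of FADS1. Whether the counting used strand is not given in the sources used here, so reads in the shared part may have been assigned to either gene or to neither. FADS3, a related gene outside the set of 33, was at 102 and 72.9 CPM in the drug naive and DMSO lines. It was at 57.8, 43.2 and 59 CPM in the early stage lines and at 129 and 220 CPM in the late stage lines. The early stage lines were the lowest and the late stage lines the highest, without overlap. FADS3 was higher in the late than in the early stage by 1.71 (SE 0.26, edgeR FDR = 0.0167).

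Of the other fatty acid genes, ELOVL6 extends palmitate and LPIN1 makes diacylglycerol for storage lipid. Neither passed a threshold, ELOVL6 with log2 fold changes of -0.17 in the early and 0.18 in the late stage, and LPIN1 with 0.18 and 0.30. In the late stage against the early stage all 9 fatty acid genes had a positive log2 fold change, with a median of 0.36, and 2 of them passed an FDR of 0.05. Those were FADS1 and ACLY, which was 1.45-fold higher in the late stage (log2 0.54, SE 0.11, FDR = 0.0252). The FDR of ACLY in this comparison was 0.137 without the 200 nM line, 0.0681 without the 15 nM line and 0.0541 without the 25 nM line. The background for this comparison was 6.6% of all genes higher and 6.1% lower at an FDR of 0.05. None of the 33 genes was lower. At an FDR of 0.005 no gene of the 10452 passed this comparison with edgeR, while 3450 had an unadjusted p below 0.05. By DESeq2 1135 genes passed 0.005, and by limma voom none did. The median of the 33 genes was 0.25, beside -0.005 for all genes, and 25 of the 33 were higher in the late stage, beside 49.3% of all genes.

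The 11 enzymes from FDFT1 to DHCR7 turn farnesyl pyrophosphate into cholesterol by way of squalene and lanosterol. At an FDR of 0.05, 1 was higher and 2 were lower in the early stage, against 22.6% and 24% of all genes. The 2 include HSD17B7, which passed the filter only through the control lines. In the late stage 2 were higher and 1 was lower, against 16.2% and 17.6%. None passed 0.005. SQLE (chr8:126010739-126034525, plus strand), which oxidizes squalene and is a rate-controlling enzyme of the branch, was at 249 CPM in the drug naive line and 148 CPM in the DMSO line. It was at 252, 323 and 321 CPM in the early stage lines and at 408 and 407 CPM in the late stage lines. The 10 nM line was hardly above the drug naive line, and the late stage lines were the highest. SQLE was 2.06-fold higher in the late stage (log2 1.04, SE 0.24, edgeR FDR = 0.0158, past the second threshold), and its early stage value was 0.59 (SE 0.22, FDR = 0.0599).

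NSDHL (chrX:151999511-152038273, plus strand), which takes part in removing methyl groups from lanosterol, was at 34.7 and 29.6 CPM in the drug naive and DMSO lines. It was at 41.7, 57 and 48 CPM in the early stage lines and at 49.6 and 53.7 CPM in the late stage lines. All DasR lines were above both controls. NSDHL was 1.52-fold higher in the early stage (log2 0.60, SE 0.15, edgeR FDR = 0.0146) and 1.61-fold higher in the late stage (log2 0.68, SE 0.16, FDR = 0.0177). Without the DMSO line these FDR values were 0.1 and 0.0952, and the late stage value was 0.0543 without the drug naive line and 0.0637 without the 200 nM line.

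CYP51A1, the lanosterol demethylase, was at 200 and 146 CPM in the drug naive and DMSO lines, at 110, 119 and 124 CPM in the early stage lines, and at 154 and 167 CPM in the late stage lines. Only the early stage lines were under both controls. The log2 fold change of CYP51A1 was -0.56 in the early stage (SE 0.14, edgeR FDR = 0.0145) and -0.11 in the late stage. Without the drug naive line the early stage value was -0.33 with FDR = 0.0795. HSD17B7, which acts with NSDHL and MSMO1 in a later removal of methyl groups, was at 16 and 10.4 CPM in the controls and between 5.68 and 8.88 CPM in the DasR lines. HSD17B7 passed the filter on low counts only through the control lines. Its test in the main fit therefore depends on the group where it was high, and no conclusion is drawn from it. That fit gave -0.96 in the early stage (SE 0.24, FDR = 0.0159) and -0.62 in the late stage (FDR = 0.116). With no filter on low counts the early stage value was -0.94 (edgeR FDR = 0.0111). HSD17B7 has a near-identical copy, HSD17B7P2, with 80 and 46 counts in the controls and between 24 and 38 in the DasR lines, so its reads may have been split. SC5D, which adds a double bond late in the pathway, was at 50.9 and 37.9 CPM in the controls, between 32.6 and 38.4 CPM in the early stage lines, and at 31.6 and 23.8 CPM in the late stage lines. It was at 0.624 of control in the late stage (log2 -0.68, SE 0.19, FDR = 0.0314, but 0.165 without the drug naive line, 0.126 without the 200 nM line and 0.0581 without the 25 nM line).

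The remaining sterol enzymes passed no threshold. Their early and late stage log2 fold changes were -0.37 and -0.26 for the squalene synthase FDFT1, 0.32 and 0.35 for the lanosterol synthase LSS, and 0.07 and 0.14 for the sterol isomerase EBP. The values were -0.66 and -0.09 for the methyl oxidase MSMO1, and -0.11 and -0.57 for the sterol reductase TM7SF2. DHCR7, which catalyzes the last step to cholesterol in 1 arm of the pathway, had 0.37 and 0.66, with a late stage FDR of 0.0623. The interval of FDFT1 in the early stage was -0.92 to 0.18, wide enough to hold a near halving as well as no difference. CYP51A1 and EBP share exon bases with other protein-coding gene models on the same strand in the annotation used for positions. The largest overlap is 68.2% of the exon bases of CYP51A1 and 36.4% of those of EBP. Whether these models were part of the counting is not given in the sources used here, so the counts of both genes are uncertain.

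The 7 mevalonate pathway genes carry acetyl-CoA to farnesyl pyrophosphate. Their log2 fold changes ranged from -0.22 to 0.22 in the early stage and from -0.31 to 0.38 in the late stage, and none passed an FDR of 0.05. Of all genes, 22.6% were higher and 24% lower at that FDR in the early stage, and 16.2% and 17.6% in the late stage. HMGCS1 (chr5:43287572-43313614, minus strand), which makes HMG-CoA, was at 299 CPM in the drug naive line and 141 CPM in the DMSO line. It was at 176, 256 and 274 CPM in the early stage lines and at 276 and 298 CPM in the late stage lines. Every DasR line fell between the 2 controls. The log2 fold change of HMGCS1 was 0.10 (SE 0.31, edgeR FDR = 0.815) in the early stage, with a 95% interval from -0.63 to 0.83, and 0.38 (FDR = 0.414) in the late stage. The early and late stage values were 0.08 and -0.04 for the thiolase ACAT2, -0.17 and -0.04 for the kinase MVK, and 0.01 and -0.31 for the kinase PMVK. They were 0.12 and 0.10 for the decarboxylase MVD, 0.22 and 0.04 for the isomerase IDI1, and -0.22 and 0.01 for FDPS, which makes farnesyl pyrophosphate. Of the exon bases of HMGCS1, 37.7% are shared with a long noncoding RNA on the opposite strand, and of those of FDPS, IDI1 and ACAT2 between 15% and 18.6% are shared with the opposite-strand gene of the largest overlap.

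Among the regulators, SREBF2 (chr22:42229109-42303310, plus strand) was at 387 and 298 CPM in the drug naive and DMSO lines. It was at 250, 312 and 273 CPM in the early stage lines and at 271 and 231 CPM in the late stage lines. Of the DasR lines, the 15 nM line fell between the controls and the others were under both. The log2 fold change of SREBF2 was -0.30 in the early stage (edgeR FDR = 0.133) and -0.45 in the late stage (FDR = 0.0688). SREBF1 (chr17:17713713-17740316, minus strand) was at 149 and 154 CPM in the controls, at 124, 134 and 144 CPM in the early stage lines, and at 150 and 220 CPM in the late stage lines. The 200 nM line stood above the other 6. The log2 fold change of SREBF1 was -0.18 in the early stage (FDR = 0.377) and 0.28 in the late stage (FDR = 0.242), and the stages differed by 0.46 (FDR = 0.0918).

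SCAP (chr3:47455171-47518616, minus strand), the escort of the SREBPs, was at 159 and 171 CPM in the drug naive and DMSO lines. It was at 168, 195 and 172 CPM in the early stage lines and at 143 and 150 CPM in the late stage lines. The late stage lines were the lowest of the 7. The log2 fold change of SCAP was 0.11 in the early stage (edgeR FDR = 0.36) and -0.17 in the late stage (FDR = 0.234). INSIG1 (chr7:155089486-155101945, plus strand), which holds SCAP in the endoplasmic reticulum and is itself a target of the SREBPs, was at 333 CPM in the drug naive line and 180 CPM in the DMSO line. It was at 156, 217 and 227 CPM in the early stage lines and at 257 and 235 CPM in the late stage lines. As with HMGCS1, the DasR lines other than the 10 nM line fell between the controls. The log2 fold change of INSIG1 was -0.36 in the early stage (FDR = 0.292, 95% interval from -0.97 to 0.25) and -0.06 in the late stage (FDR = 0.89).

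INSIG2 (chr2:118846028-118868573, plus strand), the second retention protein, was at 19.4 and 12.5 CPM in the drug naive and DMSO lines. It was at 10.7, 8.36 and 10.4 CPM in the early stage lines and at 12.4 and 15.6 CPM in the late stage lines. The early stage lines were the lowest, and the 50 nM line was just under the DMSO line. INSIG2 was the 1 regulator to pass a threshold, at 0.614 of control in the early stage (log2 -0.70, SE 0.23, edgeR FDR = 0.0409). Without the drug naive line the value was -0.37 with FDR = 0.303. The FDR was between 0.0609 and 0.107 without 1 of the early stage lines, and 0.0502 with limma voom. STARD4, which carries cholesterol between membranes, had log2 fold changes of -0.44 in the early stage (FDR = 0.0998) and 0.22 in the late stage.

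The 2 control lines differed more in these genes than most genes did. Of the 33 genes, 28 were higher in the drug naive line than in the DMSO line (84.8%, beside 48.2% of all genes). The median log2 ratio was 0.43, beside -0.009 for all genes. At least 1.5-fold higher in the drug naive line were 11 of the 33 (33.3%), against 3.21% of all genes, and none was lower by that much, against 1.34%. HMGCS1 had the largest ratio, at 2.12 with a 95% interval of 2.03 to 2.21 that covers counting error only. MSMO1 followed with 128 against 62.8 CPM, a ratio of 2.03, and INSIG1 with a ratio of 1.85. The others were FDFT1 at 1.75, ACSS2 at 1.72, SQLE at 1.69, STARD4 at 1.66, DHCR7 at 1.61, and HSD17B7, INSIG2 and MVD at 1.55 each. The genes past 1.5-fold came from all 4 branches of the set, and 17 of the 18 mevalonate and sterol enzymes were higher in the drug naive line. The genes at or under the DMSO level were PMVK at 0.774, SCAP at 0.932, ACACA at 0.949, SREBF1 at 0.967 and ACLY at 0.975. Each line has 1 library, so that this difference has no replicate check and no p-value, and the vehicle, the separate culture and the library preparation cannot be told apart as its source.

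**Figure D4:**
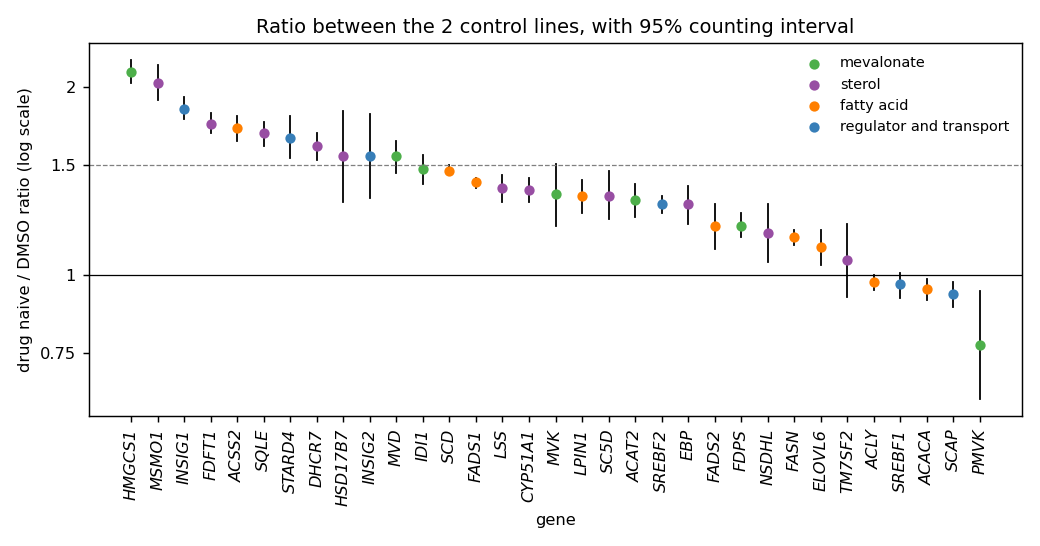
Ratio of the CPM in the drug naive line to that in the DMSO line (y axis, log scale) for each of the 33 genes, ordered by the ratio and colored by branch, with vertical lines for 95% intervals of counting error, a solid line at 1 and a dashed line at 1.5. The points run from 2.12 for HMGCS1 to 0.774 for PMVK, and 28 of the 33 lie above 1.

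Within the early stage the 10 and 15 nM lines also stood apart. Their monocyte marker sums differed too, at 104 and 26.2 CPM, with LYZ at 103 and 24.8 CPM. The part of this marker difference in the lipid genes was not tested. Of the 33 genes, 25 were higher in the 15 nM line than in the 10 nM line (75.8%, beside 50.9% of all genes), with 16 of the 18 mevalonate and sterol enzymes among them and a median log2 ratio of 0.42 for those 18. IDI1 was above 1.5-fold with 204 against 108 CPM, a ratio of 1.89, as did MVK at 1.63 and ACAT2 at 1.51, which is 9.09% of the set against 2.77% of all genes. FADS1 was lower by more than 1.5-fold, at 0.559, which is 3.03% of the set against 4.84%. The 9 fatty acid genes did not share the direction of the sterol genes, with 4 higher and a median of -0.01. For the 25 nM line over the 15 nM line 13 of the 33 were higher, and for the 200 nM line over the 50 nM line 15, with medians of -0.02 and -0.002. The largest ratio of the 200 nM to the 50 nM line was 2.03 for FADS1. Relative to the mean of the controls, the median of the 18 mevalonate and sterol enzymes was 0.23 in the drug naive line and -0.23 with DMSO. It was -0.24, 0.19 and -0.004 in the 10, 15 and 25 nM lines, and 0.04 and 0.006 in the 50 and 200 nM lines. These medians cover genes that went both ways. In the 10 nM line, for example, SQLE was at 0.39 and HSD17B7 at -1.17, where the DMSO line was at -0.38 and -0.31. The median of the fatty acid genes was -0.14, -0.39 and -0.24 in the early stage lines and 0.12 and 0.15 in the late stage lines, with the controls at 0.13 and -0.13.

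Genes that work beside the 33 were counted from 6 lists, and in each some of the genes with the largest log2 fold changes among those called are named. Of 16 genes of SREBP processing and sterol sensing, all tested, 2 rose and 5 fell in the early stage at an FDR of 0.005, against 7.92% and 10.1% of all genes, and 0 rose and 1 fell in the late stage, against 3.42% and 4.56%. At an FDR of 0.05 the early stage had 2 higher and 7 lower, against 22.6% and 24% of all genes, and the late stage 3 higher and 6 lower, against 16.2% and 17.6%. The medians were -0.20 and -0.30. The same shares of all genes are the background for the lists that follow. SEC24D, part of the vesicle coat that carries SCAP and the SREBPs to the Golgi apparatus, was at 172 and 109 CPM in the drug naive and DMSO lines, between 44.3 and 45.5 CPM in the early stage lines, and at 73.4 and 76.9 CPM in the late stage lines. It fell in the early stage by 1.64 on the log2 scale (SE 0.17, edgeR FDR = 0.000651). UFD1, which helps to extract ubiquitin-marked proteins from the endoplasmic reticulum, was at 136 and 151 CPM in the controls, at 345, 395 and 371 CPM in the early stage lines, and at 354 and 201 CPM in the late stage lines. It rose by 1.37 in the early stage (SE 0.23, FDR = 0.00319). The 3 groups did not overlap in SEC24D, and UFD1 was higher in every DasR line than in either control.

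Of 21 listed genes of sterol efflux and transport 13 were tested, of which 1 passed in each direction in the early stage, and 1 was lower in the late stage, at an FDR of 0.005. At 0.05 the early stage had 2 higher and 6 lower, against 22.6% and 24% of all genes, and the late stage 2 higher and 3 lower, against 16.2% and 17.6%. RXRA, the partner of the LXR sterol receptors, rose by 0.89 (SE 0.13, edgeR FDR = 0.00236) and STARD3, which moves cholesterol from late endosomes, fell by 0.70 (SE 0.10, FDR = 0.0019) in the early stage. OSBPL2, an oxysterol-binding protein family member, fell by 0.69 in the late stage (FDR = 0.00473). Of 14 genes of the isoprenoid branches, all tested, ZMPSTE24, which trims prenylated prelamin A, rose in the early stage by 0.79 (SE 0.13, FDR = 0.00359) and in the late stage by 0.95 (SE 0.14, FDR = 0.00393), and no other gene passed 0.005. At 0.05 the early stage had 4 higher and 0 lower, and the late stage 2 higher and 1 lower. Of 21 listed genes of glycerolipid and phospholipid synthesis 19 were tested, of which 10 were higher and 1 was lower in the early stage at an FDR of 0.05, against 22.6% and 24% of all genes, and 6 were higher and 1 was lower in the late stage, against 16.2% and 17.6%. At 0.005 CDS2, which makes CDP-diacylglycerol, rose by 0.74 in the early stage (FDR = 0.00147) and by 0.66 in the late stage (FDR = 0.00473), and LPIN3 had a late stage value of -0.997 (FDR = 0.00447).

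Of 23 listed genes of fatty acid elongation, desaturation and activation 17 were tested, and at an FDR of 0.005 the early stage had 1 higher and 2 lower, the late stage 1 lower. At 0.05 the early stage had 5 higher and 6 lower, against 22.6% and 24% of all genes, and the late stage 4 higher and 3 lower, against 16.2% and 17.6%. The higher genes of both stages include genes that passed the filter only through DasR lines, where they were higher than in the controls. Their calls were therefore not read as a test of a rise. ACACB, the acetyl-CoA carboxylase at mitochondria, was at 27.8 and 19.1 CPM in the drug naive and DMSO lines, between 1.06 and 2.53 CPM in the early stage lines, and at 1.32 and 2.04 CPM in the late stage lines. All DasR lines were far under both controls, on 21 to 69 counts each. ACACB passed the filter only through the control lines, where it was high. Its fit was therefore not read as a test of a fall. The fitted values were -3.56 in the early stage (SE 0.38) and -3.80 in the late stage (SE 0.46). At 0.005 the 2 lower genes of the early stage include ACACB, and it is the 1 lower gene of the late stage. ACSL1, which activates long-chain fatty acids, fell by 1.76 in the early stage (SE 0.24, FDR = 0.00168), and ELOVL1, which extends very long chains, rose by 0.94 (SE 0.11, FDR = 0.000848). In the late against the early stage 5 were higher and 2 lower at an FDR of 0.05, against 6.6% and 6.1% of all genes, led by ELOVL7 at 2.32 (FDR = 0.025), FADS3 at 1.71 and ACSL4 at 1.25 (FDR = 0.0167).

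Of 21 genes of fatty acid oxidation, all tested, none was higher and 4 were lower in the early stage at an FDR of 0.005, and 3 were lower in the late stage. At the second threshold 10 were lower and 1 was higher in the early stage, against 24% and 22.6% of all genes, and 7 were lower and 3 higher in the late stage, against 17.6% and 16.2%. Between the stages 4 were higher and 3 lower, against 6.6% and 6.1%. CPT1A, which admits fatty acids to mitochondria, was at 58.6 and 61.1 CPM in the drug naive and DMSO lines, at 47.6, 68.7 and 47.8 CPM in the early stage lines, and at 19.5 and 23.1 CPM in the late stage lines. The late stage lines were the lowest, and the early stage lines surrounded the controls. CPT1A fell by 1.49 in the late stage (SE 0.20, edgeR FDR = 0.00259), with an early stage value of -0.13 (FDR = 0.577). ACAA2, a thiolase of the mitochondrial cycle, fell by 1.44 in the late stage (SE 0.19, FDR = 0.00258). ETFDH, which passes electrons from the cycle to the respiratory chain, fell by 1.04 in the early stage (SE 0.15, FDR = 0.00222).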

How the data were processed

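The authors made 1 directional, ribosomal RNA depleted library from each of 7 K562 lines, while the labels name polyA RNA. Alignment was to hg19 (STAR), and the deposited values were raw counts per gene from featureCounts, per the labels. Columns of the authors' own comparisons, deposited beside the counts, were used only for gene symbols and lengths.

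A gene was kept at 10 CPM or more in 2 or more libraries, which left 10452. These were TMM scaled and fitted in R 4.3.3 by edgeR 4.0.16 (glmQLFit, glmQLFTest), using all 7 libraries, a coefficient for each group and Benjamini-Hochberg adjustment. The biological coefficient of variation was 0.161. CPM was computed over the tested genes. The fit was tested on simulated data. Alternatives were RLE scaling, library totals, a filter of 1 CPM or none, an FDR of 0.05, limma 3.58.1 (voom), DESeq2 1.42.0, a fit to the groups compared, and each line left out. Total counts were between 20059656 and 27844799. Intervals of ratios (95%) cover counting error only.

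The 33 genes, the lists and the tests were chosen with earlier results of these data known. Values in every line are printed for the SREBP regulators and for those of the 33 genes called at an FDR of 0.005, or 0.05 between the stages, with at most 3 genes named per list and comparison. The values of 1 list gene are not reported here. SQLE, NSDHL, SCD, HMGCS1, MSMO1 and other genes given by line were chosen after their values were seen. Positions came from GENCODE v44lift37 and promoters from RefSeq.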

Additional observations from a re-analysis of the deposited data

Results flagged for a closer look

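For 2 of the 33 genes the change from control differed between the stages by a test of the difference itself, at an FDR of 0.05 though not at 0.005. That is 6.06% of the set, with both genes higher in the late stage, against 6.6% of all genes higher and 6.1% lower, so the count is near the background. FADS1 was lower than control in the early stage and not in the late stage, and the late minus early stage difference was 2.28 on the log2 scale (edgeR FDR = 0.0169), with both late stage lines above all 3 early stage lines. ACLY differed by 0.54 in the same direction (FDR = 0.0252), again without overlap of the lines. How many of all genes separate the late from the early stage lines was not counted. The lack of overlap is therefore a description only. Without the 200 nM line the difference was 1.68 (FDR = 0.0855) for FADS1 and 0.41 (FDR = 0.137) for ACLY, and the FDR of ACLY was also above 0.05 without the 15 nM line (0.0681) or the 25 nM line (0.0541). Groups of 2 and 3 lines were too small to test whether a single line is an outlier. Lines that differed in level from others of their group are described above.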

How the results depend on the processing

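No paired analysis was possible because the labels give the lines no replicate numbers. Of 1470 values of single genes and comparisons over 15 settings, 1417 kept their call or lack of one. Of the others, 17 lost a call and 36 gained one. Calls were made at 0.005 except in the setting with an FDR of 0.05. The gains in that setting come from the threshold alone. No called value changed direction, while 55 uncalled values changed sign. In the early stage 2 of the 33 genes and 1881 of all genes were called, against 4 and 2762 (of 22776 tested) with no filter, 9 and 4865 at an FDR of 0.05, and 8 and 3548 with DESeq2. With a line left out 0 to 3 of the 33 and 187 to 2074 of all genes were called. They were 0 without the drug naive, 15 nM or 25 nM line, ACSS2 without the DMSO line, FASN, which was not among the 2, without the 10 nM line, and FADS1 besides the 2 without the 50 or 200 nM line. In the late stage 1 of the 33 and 834 of all genes were called, against 0 and 827 (of 14899 tested) with a filter of 1 CPM, 0 and 335 with a fit to the groups compared, 3 and 1287 with no filter, 5 and 3542 at 0.05, and 4 and 2503 with DESeq2. With a line left out 0 to 1 of the 33 and 30 to 601 of all genes were called, FASN without the 10 nM line and ACSS2 without the DMSO line. Between the stages none of either was called, against 1 and 295 with no filter, 2 and 1328 at 0.05, 3 and 1135 with DESeq2, and 0 to 1 of the 33 and 0 to 200 of all genes with a line left out (FADS1 without the 50 nM line). The median of the 33 genes in the early stage (-0.17) ranged from -0.26 to 0.001 with a line left out, the last without the drug naive line. The late stage median (0.04) was 0.08 at 1 CPM, 0.10 with no filter, 0.072 with voom, and ranged from -0.14 without the DMSO line to 0.29 without the drug naive line, so that its sign rests on the choice of control line. The median between the stages (0.25) was 0.28 at 1 CPM, 0.29 with no filter, and ranged from 0.15 to 0.31 with a line left out. The causes of these shifts were not tested. Where leaving out a line left 1 in its group, that line was assumed to vary like the others. HSD17B7 could not be fitted without a control line, since it then failed the filter. Between the control lines 11 genes passed 1.5-fold, and, chosen after seeing the data, 23 passed 1.2-fold (13.7% of all genes), 2 passed 2-fold (0.938%) and 8 passed 1.5-fold on library totals (2.57%). With 138 or more counts for each gene in each line, the precision was set by the 2 or 3 libraries per group.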
